A study of Mus musculus with 4 samples.

Results

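Gadd45g, Map3k4, Map2k6, Kdm3a, Cbx2, Six4, Gata4 and Zfpm2 are 8 autosomal genes that act upstream of testis determination. They were taken by symbol from the deposited gene tables, where they make up 8 of 40999 listed features, and all 8 passed the filter on low counts. The tables come from stranded total RNA-seq of wild-type C57BL/6J mouse gonads, taken daily between E11.5 and E14.5. The gonads of 2 litters, no fewer than 6 of each sex, went into the pool of a time point, so that every library holds XX and XY tissue together, and 1 library was made per pool. The E11.5 pool was the whole genital ridge with its mesonephros, whereas the later gonads were freed of the mesonephros. No time point has a replicate, so every interval given here covers counting error only, and no p-value is given. In pooled tissue of this kind, fewer cells of a type and less RNA per cell cannot be told apart, and neither can XX and XY levels.

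In the mouse, a bipotential gonad becomes a testis when supporting cells of the XY gonad switch on Sry, which then activates Sox9. The 8 genes are known from mutants in which this step is delayed or lost. GADD45G binds and activates MAP3K4, a kinase that signals through MAP2K6 to the p38 MAP kinases. KDM3A removes methyl groups from lysine 9 of histone H3 (H3K9), a repressive mark found at Sry, and CBX2 is a chromodomain subunit of Polycomb repressive complex 1. SIX4, a homeodomain factor, GATA4, a zinc finger factor of the early gonad, and ZFPM2 (FOG2), the cofactor bound by GATA4, are transcriptional regulators.

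The 3 genes of the kinase cascade took different courses. The region before an annotated start of each is shown so that the genes can be seen side by side. RefSeq promoter windows (GRCm38.p6, 250 bases before and 50 after an annotated start) matched 5 of the 8 genes, which were Gadd45g, Map3k4, Map2k6, Kdm3a and Six4; Cbx2, Gata4 and Zfpm2 are named only. The 250 bases before the start are chr13:51846425-51846674 on the plus strand for Gadd45g, chr17:12318661-12318910 on the minus strand for Map3k4 and chr11:110398852-110399101 on the plus strand for Map2k6. The Map3k4 start used, 12318660, lies inside the gene as counted, whose 5′ end is 12318816. Part of its printed stretch therefore overlaps the counted gene. Each is printed 5′ to 3′ on the strand of its gene, and capitals mark matches to 5 searched motifs on either strand.
Gadd45g: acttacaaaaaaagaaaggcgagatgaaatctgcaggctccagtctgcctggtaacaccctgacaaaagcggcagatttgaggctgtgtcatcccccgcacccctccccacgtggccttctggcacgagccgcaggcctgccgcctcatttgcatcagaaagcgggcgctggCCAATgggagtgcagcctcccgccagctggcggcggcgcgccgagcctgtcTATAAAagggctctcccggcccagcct
Map3k4: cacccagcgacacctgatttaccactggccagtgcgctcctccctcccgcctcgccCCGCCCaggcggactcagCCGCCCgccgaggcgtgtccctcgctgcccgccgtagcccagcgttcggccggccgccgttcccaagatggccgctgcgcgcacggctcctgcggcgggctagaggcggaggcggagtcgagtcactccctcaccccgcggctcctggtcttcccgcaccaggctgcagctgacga
Map2k6: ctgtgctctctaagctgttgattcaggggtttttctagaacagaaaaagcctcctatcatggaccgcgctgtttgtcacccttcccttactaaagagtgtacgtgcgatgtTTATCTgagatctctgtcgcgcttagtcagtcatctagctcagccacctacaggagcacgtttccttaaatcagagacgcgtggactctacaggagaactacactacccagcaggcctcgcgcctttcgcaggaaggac
The motifs were the TATA box TATAAA, the CCAAT box CCAAT, the GC box GGGCGG, the GATA motif AGATAA and the MEF3 motif TCAGGTT, which SIX4 binds. They occurred in 13.6%, 37.4%, 35.9%, 11.2% and 4.07% of 32544 RefSeq promoter windows. Gadd45g held TATAAA 27 bases and CCAAT 78 bases before its start, Map3k4 held 2 GC boxes in reverse orientation, and Map2k6 held 1 reverse GATA motif 139 bases before its start. CCAAT and GC boxes were present in the windows of Kdm3a and Six4. The windows of Kdm3a and Six4 lie inside the genes as counted. The starts used were 71632917 and 73113425, and the 5′ ends of the counted genes are 71633248 and 73114032. TCAGGTT was in none of the 5 windows. These are letter matches in one window per gene and were not measured as binding sites.

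Depth differed less between libraries in total than in content. Counts summed to between 25593453 and 31752562 per library, but ribosomal RNA genes held 51.2% of them at E14.5 and 21.0%, 12.7% and 12.2% in the 3 earlier libraries, in order of age. Levels are therefore given as RPKM, read counts divided by exon length and library size, scaled by edgeR's TMM over the 4 libraries, and differences as log2 of the later over the earlier level with a 95% interval. A gene was called when it was at least 2-fold higher or lower. The tissue label was met by its markers, since supporting cell markers summed to 70.7 RPKM at E11.5 and 438 to 452 RPKM afterwards. Nephric and mesonephric markers summed to 82.2 RPKM at E11.5 and to between 27.6 and 32.8 RPKM later, and 7 of 10 were called lower at E12.5. Any difference between E12.5 and E11.5 therefore coincides with removal of the mesonephros, and age and dissection cannot be told apart in these libraries.

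Gata4 was the most abundant of the 8 genes and Six4 the least abundant in every library. Between them, Kdm3a, Gadd45g, Zfpm2, Map3k4, Cbx2 and Map2k6 kept to the middle of the order, with Gadd45g moving between the second and the fourth place. The levels of Zfpm2 and Map3k4 and of Map3k4 and Cbx2 had overlapping intervals at E11.5. Gadd45g and Zfpm2 overlapped at E12.5 and again at E14.5, and no neighbors overlapped at E13.5. The highest level exceeded the lowest 2.73-fold for Gata4, 1.98-fold for Cbx2, 1.93-fold for Gadd45g and 1.85-fold for Map2k6. The range was 1.54-fold for Six4, 1.40-fold for Zfpm2, 1.24-fold for Kdm3a and 1.18-fold for Map3k4, against a median of 1.28-fold over 11640 genes that had 100 counts or more in all 4 libraries.

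**Figure D1:**
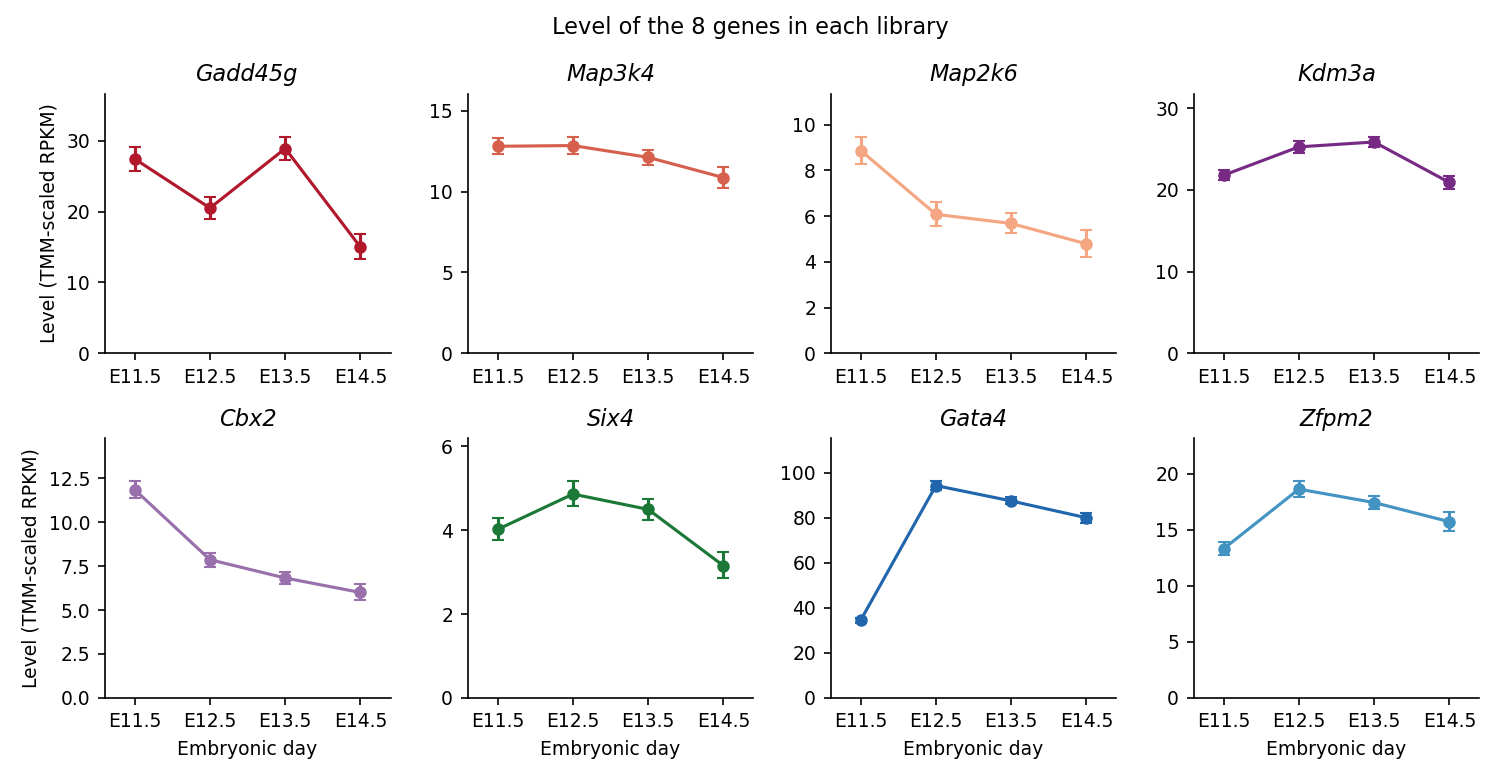
Level of each gene (y-axis, TMM-scaled RPKM, from 0, a scale of its own per gene) in the library of each embryonic day (x-axis). Points are single libraries and bars are exact Poisson 95% intervals of the count; Gata4 stood at 34.5 RPKM at E11.5 and above 80 RPKM on the later days, and Cbx2 and Map2k6 were highest at E11.5.

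The comparison of E12.5 with E11.5 asks what differs as the gonad passes through sex determination. Of the 8 genes, 1 was called, Gata4, which was higher, while 18.9% of the 20114 genes tested were called and 9.35% were called higher. The median log2 difference of the 8 genes was 0.11. Kdm3a, Six4 and Zfpm2 lay above 0 with intervals that excluded 0, Gadd45g, Map2k6 and Cbx2 lay below it, and the interval of Map3k4 spanned it. In E13.5 versus E12.5, none of the 8 was called against 6.23% of the genes tested, and the median was -0.10. None was called in E14.5 versus E13.5, against 9.58% of all genes, or in E14.5 versus E12.5, against 13.3%. In both of these all 8 genes lay below 0, with medians of -0.22 and -0.31. Below 0 lay 55.7% and 54.9% of the genes with at least 100 counts. These comparisons share libraries and are not independent of each other. At a lower threshold of 1.5-fold, Gata4 and Cbx2 were called at E12.5, against 31.7% of the genes tested, none of the 8 at E13.5, against 15.6%, Gadd45g at E14.5 versus E13.5, against 19.2%, and Six4 at E14.5 versus E12.5, against 25.6%. By the study's rule of 2-fold and an FDR of 0.05, here with a preset biological coefficient of variation of 0.1, Gata4 alone was called at E12.5, against 13.9%, and with a preset value of 0.4 none of the 8 was called. That rule called none of the 8 in the other 3 comparisons, against 1.82%, 4.67% and 7.48% of the genes tested.

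**Figure D2:**
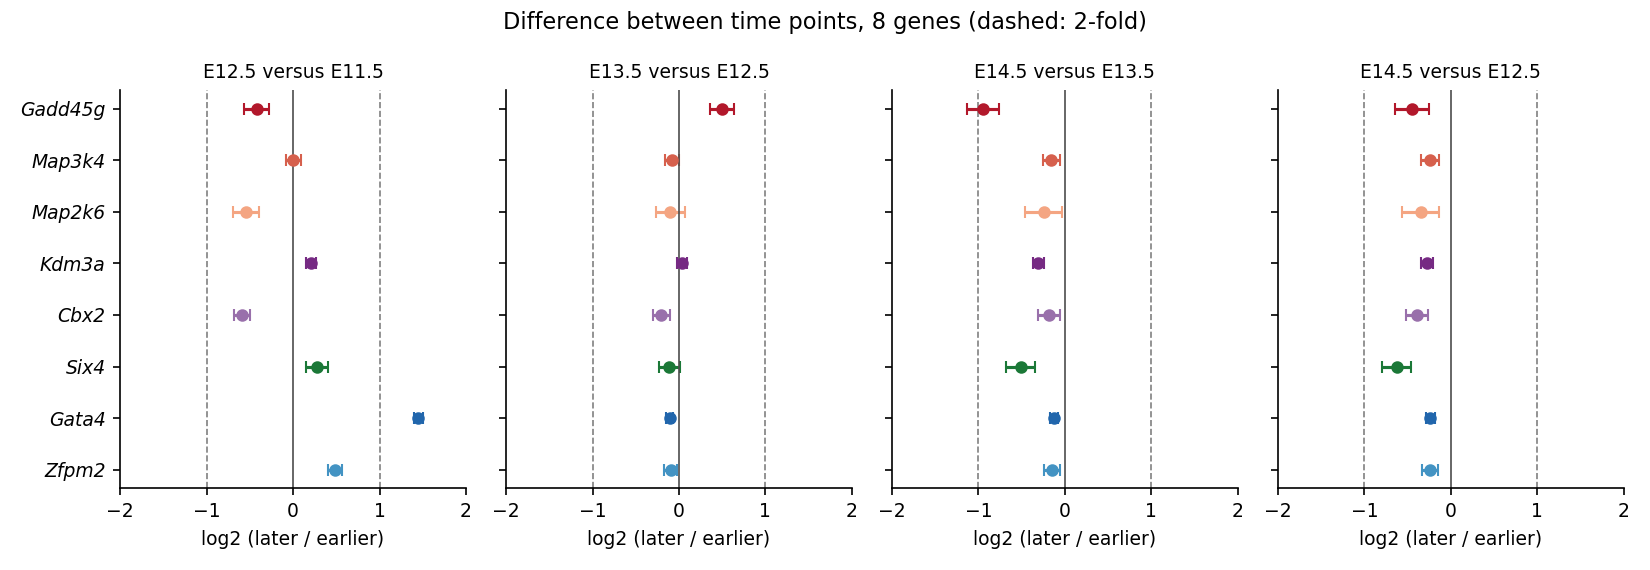
Log2 difference of each gene (rows) between time points (x-axis, later over earlier, TMM-scaled counts), 1 panel per comparison. Points are single pairs of libraries, bars are exact Clopper-Pearson 95% intervals and dashed lines mark 2-fold; only Gata4 in E12.5 versus E11.5, at 1.45, lies beyond a dashed line, and Gadd45g comes closest among the others, at -0.95 in E14.5 versus E13.5.

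Gadd45g (mm10, chr13:51846675-51848475, plus strand) encodes the activator at the head of the p38 cascade. Its counts from the first to the last day were 1016, 695, 1236 and 305, or 27.4, 20.5, 28.9 and 15.0 RPKM in the same order. The E12.5 and E14.5 libraries thus lay below those of E11.5 and E13.5. The log2 difference was -0.42 (95% interval -0.56 to -0.28) at E12.5, 0.50 (0.36 to 0.63) at E13.5 and -0.95 (-1.13 to -0.77) at E14.5, each against the day before. Of the genes tested, 2.73% lay at or below the last value. By the deposited TPM the order of E11.5 and E12.5 was kept, at 42.3 and 38.6 TPM, with 59.5 TPM at E13.5 and 10.04 TPM at E14.5.

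Map3k4 (chr17:12227621-12318816, minus strand), the kinase that GADD45G binds, varied least of the 8. Its level was 12.8, 12.9, 12.1 and 10.9 RPKM by age, from 2451, 2252, 2679 and 1143 counts. At E12.5 it differed from E11.5 by 0.01 (-0.08 to 0.09) on the log2 scale. Its largest step was -0.16 (-0.26 to -0.06) between E13.5 and E14.5.

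Map2k6 (chr11:110399122-110513697, plus strand), the kinase that phosphorylates p38, was highest in the E11.5 library. It stood at 8.87, 6.08, 5.68 and 4.79 RPKM on the 4 days, from 894, 561, 661 and 265 counts. The difference at E12.5 was -0.55 (-0.70 to -0.39), and the later steps were -0.10 (-0.26 to 0.07) and -0.25 (-0.46 to -0.04). Without the E11.5 library its range was 1.27-fold instead of 1.85-fold.

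Ratios within a library need no scaling between libraries. Per base of exon, Map2k6 had 0.69 times the counts of Map3k4 at E11.5 (95% interval 0.64 to 0.75) and 0.47 (0.43 to 0.52), 0.47 (0.43 to 0.51) and 0.44 (0.38 to 0.50) times on the later days. The later 3 intervals overlap each other and none reaches the first. Against Map2k3, the other kinase of p38 with a like role, Map2k6 went from a ratio of 0.66 (0.61 to 0.72) to 0.37 (0.32 to 0.43) at E14.5, with 0.50 and 0.48 between. Gadd45g exceeded its paralog Gadd45b 7.30-fold at E11.5 (6.18 to 8.67) and 2.73-fold (2.38 to 3.14), 2.50-fold (2.26 to 2.76) and 1.30-fold (1.10 to 1.53) on the later days. Gadd45b itself stood at 3.76, 7.50, 11.6 and 11.54 RPKM.

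Among 26 genes of the p38 and JNK module, 1 was called higher and 1 lower at E12.5, with a median log2 difference of -0.02, and none was called in the next 2 steps. The gene called higher was Mapk13, which encodes p38δ and had 4.98, 19.3, 16.3 and 14.4 RPKM, a difference of 1.95 (1.74 to 2.17) at E12.5. Mapk12, which encodes p38γ, was called lower at 1.65 RPKM and then 0.68 RPKM. Mapk14, the gene for p38α, stood at 16.1, 21.1, 20.8 and 16.5 RPKM. The highest single level in the list was that of Mapkapk2, a kinase downstream of p38, at 51.8 RPKM at E12.5.

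Kdm3a (chr6:71588970-71633248, minus strand), the H3K9 demethylase, had the most counts of the 8 genes after Gata4 on every day but E11.5, where it had the most. It had 4751, 5041, 6509 and 2503 counts, or 21.8, 25.3, 25.9 and 20.9 RPKM, so that the 2 middle days were the higher ones. The difference was 0.21 (0.16 to 0.27) at E12.5, 0.03 (-0.02 to 0.09) at E13.5 and -0.31 (-0.37 to -0.24) at E14.5. None of the 17 genes of H3K9 methylation was called at E12.5, where their median was -0.15, and Kdm3a had the highest difference of the 17. The list had no call at E13.5 and 1 at E14.5, Kdm4d, which had 26 and 44 counts. Cbx5, which encodes a heterochromatin protein that binds methylated H3K9, had the highest level, at 81.6 RPKM at E11.5 and 55.0 RPKM at E14.5.

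Relative to Ehmt2, the gene for the H3K9 methyltransferase G9a, Kdm3a had a ratio per base of 0.56 (0.54 to 0.58) at E11.5. The ratio was 0.72 (0.69 to 0.75) at E12.5 and 0.72 (0.69 to 0.74) at E13.5, and 0.54 (0.51 to 0.57) at E14.5. The 2 middle libraries were therefore apart from the outer 2 by more than counting error. Kdm3a exceeded Kdm3b, its closest relative, 1.32-fold, 1.41-fold, 1.52-fold and 1.31-fold in the 4 libraries.

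Cbx2 (chr11:119023019-119031274, plus strand) shared 29 exon bases with LOC102639538 on the opposite strand, and no other of the 8 genes shared exon bases with a listed feature. It had 2495, 1516, 1659 and 694 counts, or 11.9, 7.87, 6.83 and 6.00 RPKM, and each library was lower than the one before. The log2 difference was -0.59 (-0.68 to -0.50) at E12.5, -0.20 (-0.31 to -0.10) at E13.5 and -0.19 (-0.32 to -0.06) at E14.5. Its 1.98-fold range became 1.31-fold without the E11.5 library.

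Cbx2 had the lowest E12.5 difference among 19 genes of Polycomb repressive complex 1, of which 1 was called higher and none lower, with a median of 0.03. The gene called higher was Cbx7, another chromodomain subunit, at 0.68 and 1.49 RPKM from 93 and 188 counts. No gene of the complex was called at E13.5. At E14.5 the 1 call was Cbx8, which had 3.60, 2.59, 3.02 and 15.0 RPKM on the 4 days and 1105 counts in the last library, a difference of 2.31 (2.16 to 2.47). Cbx2 had 17.5 times the counts of Cbx7 per base at E11.5 (14.2 to 21.8). The ratio was 5.27 (4.53 to 6.16), 5.26 (4.55 to 6.11) and 3.54 (2.93 to 4.31) on the following days, and none of these 3 intervals reached the first. Rnf2, the catalytic ring finger subunit, had the highest level of the complex, at 30.7 to 35.7 RPKM.

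Six4 (chr12:73099609-73114032, minus strand) was the lowest of the 8 genes, at 4.02, 4.86, 4.50 and 3.15 RPKM from 949, 1051, 1226 and 409 counts. The E14.5 interval, 2.85 to 3.47 RPKM, lay below those of the other 3 libraries. The difference was 0.27 (0.15 to 0.40) at E12.5, -0.11 (-0.23 to 0.01) at E13.5 and -0.51 (-0.68 to -0.35) at E14.5.

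Six4 stood apart from most of its family in direction at E12.5. Of 12 listed genes of the network that Six4 belongs to, with its relatives and the Eya and Dach genes, 10 passed the filter on low counts, 6 were called lower, none was called higher and the median was -2.43. Six2, a gene of nephron progenitors that is also among the nephric markers, went from 13.9 to 0.15 RPKM and 1004 to 10 counts. Eya4 had a difference of -5.39, Dach2 of -2.69, Eya1 of -2.51 and Dach1 of -2.36, and Eya2 was called lower from 81 counts to 7. The part of the mesonephros in the family's lower levels was not tested; nephric markers were lower in the same comparison, as given above.

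**Figure D3:**
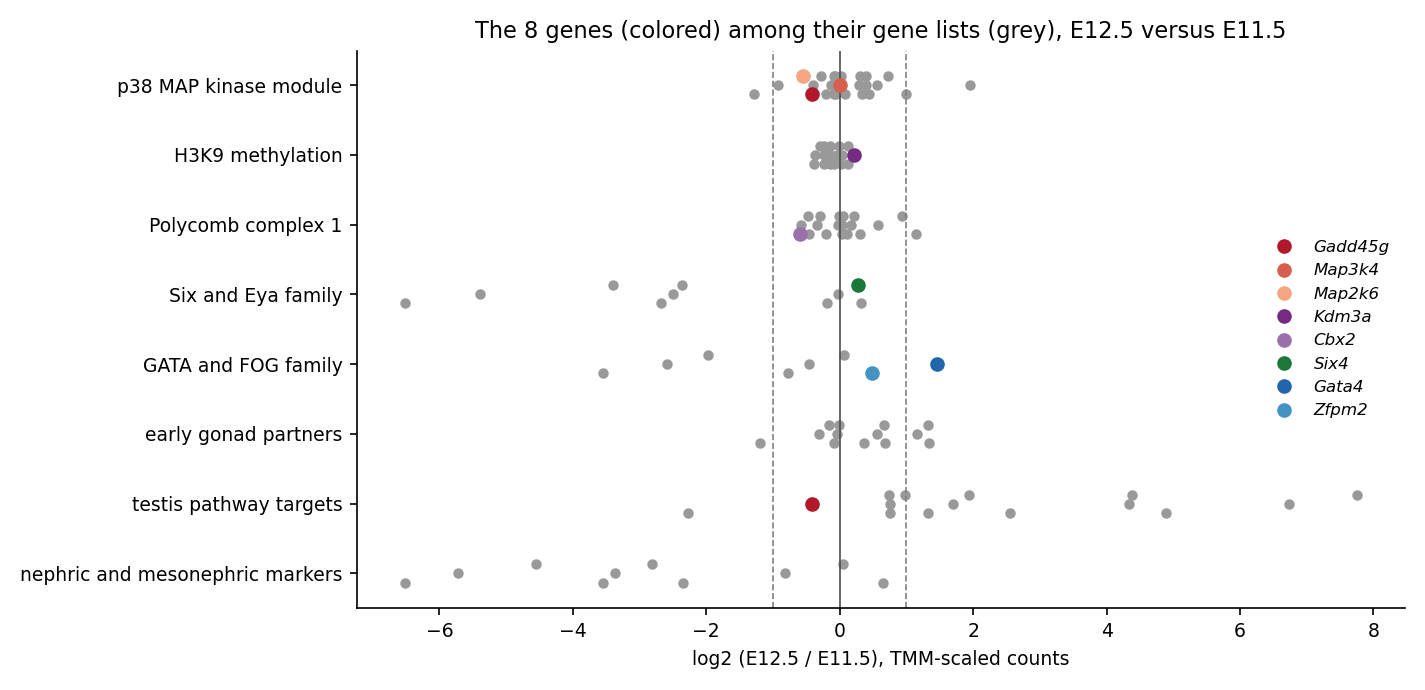
Log2 difference between E12.5 and E11.5 (x-axis, TMM-scaled counts) of every tested gene of 8 gene lists (rows; points are offset vertically for legibility). Colored points are the 8 genes, grey points the others, and dashed lines mark 2-fold; Six4 at 0.27 and Gata4 at 1.45 lie to the right of relatives that extend to -6.52 and -3.55.

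Gata4 (chr14:63198915-63245266, minus strand) was the only one of the 8 with a call. It had 4026, 10077, 11790 and 5129 counts on the 4 days, or 34.5, 94.4, 87.6 and 80.1 RPKM. The E11.5 library was the low one, and the later 3 lay within 1.18-fold of each other. At E12.5 the gene was 2.73-fold higher, a log2 difference of 1.45 (1.40 to 1.504). Of the genes tested, 94.2% had a difference no higher than this. The following steps were -0.11 (-0.15 to -0.07) and -0.13 (-0.18 to -0.08). Over the 4 libraries the genes with the most similar course, by the root mean square distance of centered log2 levels, were Arap2, Pmm1 and Gdnf, at distances of 0.0096, 0.023 and 0.034. With 4 points, 185 of 11639 genes came within 0.2.

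Zfpm2 (chr15:40655042-41104592, plus strand), the cofactor gene, was 1.40-fold higher at E12.5, a log2 difference of 0.48 (0.41 to 0.56). Its level was 13.3, 18.6, 17.4 and 15.7 RPKM from 2267, 2905, 3428 and 1471 counts, so that E11.5 was again the low library. Differences at the later steps were -0.10 (-0.17 to -0.02) and -0.15 (-0.24 to -0.06). Gata4 had 2.60 times the counts of Zfpm2 per base at E11.5 (2.47 to 2.73). From E12.5 on the ratio was 5.07 (4.87 to 5.29), 5.03 (4.84 to 5.23) and 5.10 (4.81 to 5.41), 3 values whose intervals overlap.

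In the family of 8 GATA and FOG genes, Gata4 was the 1 called higher at E12.5 and 3 genes were called lower, with a median of -0.62. Gata3, a nephric duct gene, differed by -3.55, Gata2 by -2.59 and Gata5 by -1.97. Gata6, the GATA gene expressed with Gata4 in the gonad, had 25.6, 26.6, 26.2 and 19.4 RPKM, so that Gata4 exceeded it 1.35-fold at E11.5 (1.29 to 1.41) and 3.54-fold at E12.5 (3.41 to 3.69). The excess was 3.34-fold (3.22 to 3.46) at E13.5 and 4.12-fold (3.89 to 4.37) at E14.5. Zfpm1, the other FOG gene, had 8.99, 6.54, 8.73 and 10.5 RPKM, and Zfpm2 exceeded it 1.48-fold, 2.85-fold, 1.99-fold and 1.49-fold.

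Genes of the early gonad that work beside GATA4 differed among themselves. Of 13 such genes, 3 were called higher at E12.5, and the median of the list was 0.37. Nr5a1, which encodes the nuclear receptor SF1, was at 12.8, 32.6, 34.3 and 36.8 RPKM, a difference of 1.34 (1.27 to 1.42). Lhx9 was higher by 1.15 and Dmrt1 by 1.32. Wt1 had the highest single level of the list, 101 RPKM at E11.5, and stood at 90.4, 78.0 and 57.9 RPKM later. Cited2, a transcriptional coactivator gene, was at 90.5, 94.6 and 99.7 RPKM on those later days. Their intervals overlapped at E12.5, and Wt1 was the lower from E13.5 on. The ratio of Gata4 to Nr5a1 per base was 2.69 (2.55 to 2.83) at E11.5 and 2.90 (2.80 to 2.997) at E12.5, 2 intervals that overlap. That of Gata4 to Wt1 was 0.34 (0.33 to 0.35) and 1.04 (1.01 to 1.07), which do not. Later the ratio of Gata4 to Nr5a1 was 2.55 (2.47 to 2.63) at E13.5 and 2.17 (2.08 to 2.27) at E14.5. The E14.5 interval lay below all the others.

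**Figure D4:**
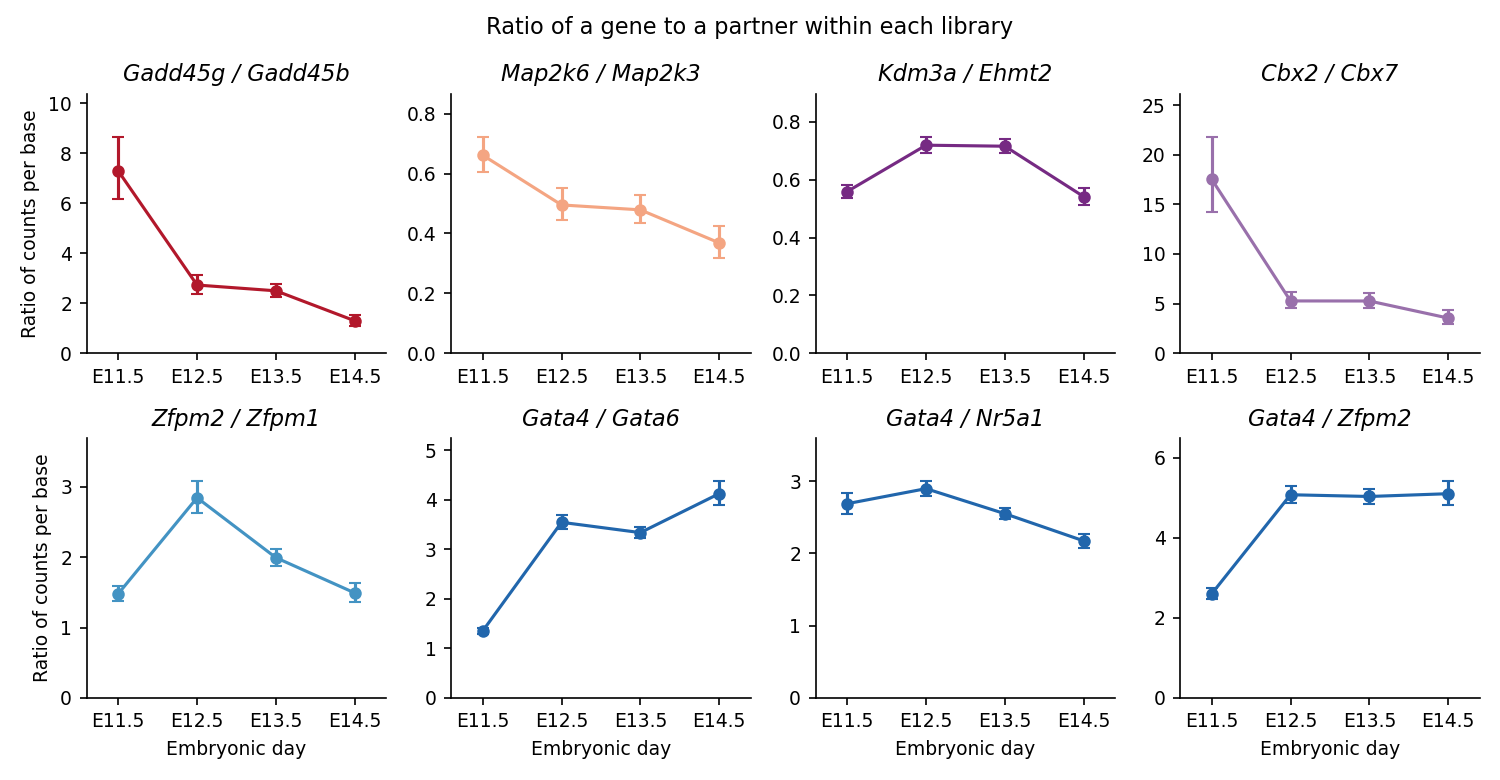
Ratio of counts per base of exon (y-axis, from 0) between a gene and a partner within each library (x-axis, embryonic day), with exact Clopper-Pearson 95% intervals. Gata4 relative to Zfpm2 is 2.60 at E11.5 and between 5.03 and 5.10 later. Gata4 relative to Nr5a1 is highest at E12.5, at 2.90, and lowest at E14.5, at 2.17. Gadd45g relative to Gadd45b goes from 7.30 to 1.30.

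Genes of the testis pathway were followed in the same libraries, and whether the 8 regulators act on them was not tested. Sry had 100, 19, 1 and 0 counts in the 4 libraries by age, where 0 allows up to 3 counts. It was 2.46 and 0.51 RPKM in the first 2 libraries, 4.82-fold lower in the second. Sox9, its target, had 19.4, 32.9, 21.9 and 19.1 RPKM. Of 15 genes of the testis pathway, 9 were called higher and 1 lower, Sry, at E12.5, with a median of 1.70. The hormone gene Amh went from 45 to 8900 counts and from 0.67 to 145 RPKM, and Ptgds, Dhh, Cst9 and Aard differed by 6.73, 4.89, 4.39 and 4.34. Gadd45g, which is also in this list, was 1 of 2 genes in it below 0. At E13.5 the list had 2 calls, both lower, Sry and Fgf9, and at E14.5 it had none.

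Summed marker levels of other cell types differed between the same libraries. Germ cell markers summed to 7.91, 126, 165 and 167 RPKM and interstitial cell markers to 134, 203, 475 and 737 RPKM. Endothelial markers summed to 114, 105, 78.8 and 72.6 RPKM and erythroid markers to 2272, 2604, 1016 and 287 RPKM. Their part in the values of the 8 genes was not tested.

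The size of the E14.5 differences rested on the scaling. Relative to total counts, all 8 genes were called lower at E14.5 against both E13.5 and E12.5, but so were 11904 and 10852 of the genes tested, and the median of all genes moved by -1.06 and -1.04. The share of called genes that were higher was 3.24% and 4.78% by total counts and 73.9% and 70.7% by TMM. By the ratio of the deposited TPM, which counts ribosomal RNA in its total, the median moved by -1.62 and -1.49 and all 8 genes were again called lower. The sign of the 8 differences was negative in both comparisons under all 5 other scalings. At E13.5 versus E12.5, Map3k4, Map2k6, Six4, Gata4 and Zfpm2 were below 0 by TMM and above 0 by deposited TPM, at no more than 0.05.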

How the data were processed

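Total RNA of pooled gonads was sequenced in 4 libraries, 1 per time point, grouped by their labels. For each pool the authors depleted ribosomal RNA enzymatically before a stranded library preparation that tags molecules with UMIs. STAR alignment to mm10, collapsing of UMI duplicates and counting with featureCounts followed. Versions and the annotation release are not given in the sources used here. The deposited values are these whole-number counts per gene, with the RPKM and TPM that the authors computed from the counts and exon lengths; the deposited RPKM were not used.

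Genes kept by edgeR's filterByExpr (20114 of 40999) were scaled by TMM over the 4 libraries (R 4.3.3, edgeR 4.0.16). Counts of 3 or fewer were put at 3, and a bound pointing the other way was taken as no difference. With 1 library per group the spread cannot be estimated, so the main calls rest on no test: a call is a difference of at least 2-fold. Levels carry exact Poisson and differences and ratios exact Clopper-Pearson 95% intervals, which cover counting error only. For a count of 0, the 3 counts put in its place are 0.0945 to 0.117 CPM of total counts and 0.0758 to 0.159 CPM by TMM. The calculation was tested on simulated data.

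The 8 genes and all gene lists were chosen with earlier results of these data known. Named genes are the 8, list members called between adjacent days, where the higher library had 100 counts or more (at most 6 per list), the most abundant gene of each list, family partners, and the 3 genes nearest in course to a member with a range of at least 2-fold. Eya2, Kdm4d and Cited2 fell outside that rule; they were picked with their values in view. Alternatives were TMM of each pair, DESeq2 1.42.0 size factors, total counts with and without ribosomal RNA and the 10 most abundant genes, the deposited TPM ratio, a prior count of 2, a 1.5-fold threshold, other filters, and the study's rule of 2-fold and FDR 0.05 in an exact test of edgeR with the biological coefficient of variation set to 0.1, 0.2 or 0.4. Ranges without each library were added after the data were seen. Promoter sequences are from RefSeq. Figures used Python 3.11.15 and matplotlib 3.10.9. Some single genes are not reported here.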

Additional observations from a re-analysis of the deposited data

How the results depend on the processing

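No paired analysis was possible because each time point has 1 library. Of the 8 genes, the number called at E12.5 versus E11.5 was 1 under every scaling, 2 at 1.5-fold, 1 with the FDR at a preset variability of 0.1 and 0.2, and 0 at 0.4. It stayed at 0 for E13.5 versus E12.5. For E14.5 it was 0 by TMM, 8 by total counts and 8 by deposited TPM against either earlier day, and 1 at 1.5-fold.

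Over all genes, calls in the 4 comparisons, in the order used above, were 3796, 1253, 1926 and 2683. They were 6378, 3146, 3861 and 5149 at 1.5-fold and 1567, 197, 469 and 734 with at least 100 counts. With the FDR they were 366, 940 and 1504 in the last 3 at a variability of 0.1. At 0.2 they were 1824, 51, 485 and 800, and at 0.4 they were 283, 1, 31 and 71. Total counts gave 12302 and 11397 calls at E14.5, and 67 and 63 calls among the partner genes of the lists, against 3 and 9 by TMM. Of the 32 differences of the 8 genes, 24 left their counting interval with total counts and 30 with deposited TPM, and none did with the pair's TMM, DESeq2 size factors, a prior count or total counts without ribosomal RNA. The E12.5 split of higher among called genes was 49.6% by TMM and 67.2% by deposited TPM, and at E13.5 it was 58.2% and 72.7%. The TPM split covered only genes with more than 3 counts in both libraries, so the gene sets differ as well as the scaling. By deposited TPM, the day of the highest level was E13.5 for Map3k4, Six4, Gata4 and Zfpm2. The Gata4 range was 1.18-fold without the E11.5 library. Without replicates, spread between animals is unknown and depth limits the counting error alone.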
